A study of Mus musculus with 9 samples.

Results

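Gclm, Nqo1 and Slc7a11 are genes of glutathione supply and quinone reduction, and their transcript levels were compared in CD11b+Gr1+ cells sorted from the spleens of mice. The members were chosen by gene symbol from the authors' table of significant changes, 1 row each of its 964 rows (895 gene names), out of 31648 rows on the array. That table had itself been selected on the contrast between the samples described here, so the differences of the 3 genes between the groups are given as a description, without a test. The tumour-bearing group held 6 single L2-Cre;p120f/f mice. The control group held 3 pools, each made from the cells of 3 mice that were healthy and of the genotype L2-Cre;p120+/f. Both groups carry L2-Cre, a transgene known to act in squamous epithelial cells of the oral cavity and the esophagus. The floxed gene is Ctnnd1 (p120 catenin), and its own level in the sorted myeloid cells was not analysed here. The strain is labelled mixed C57BL/6x129. The age field of the labels names an embryonic stage and other fields name limb tissue and other genotypes, against the titles, and they were not used. Tumour, genotype and pooling follow the same division of the samples and cannot be told apart. The surface markers of the sort (Itgam and the Ly6 genes of the Gr1 epitope) have no named row and were not analysed here.

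Glutathione is a tripeptide of glutamate, cysteine and glycine and the main soluble thiol of animal cells. Its synthesis starts with glutamate-cysteine ligase, a heterodimer in which the modifier subunit (Gclm) raises the activity of the catalytic subunit (Gclc), and it is usually limited by cysteine. Slc7a11 encodes xCT, the transport subunit of the antiporter that brings in cystine in exchange for glutamate. Cystine is then reduced to cysteine inside the cell. Nqo1 reduces quinones to hydroquinones with NADH or NADPH. All of them are well-known targets of the transcription factor NRF2 (Nfe2l2), which KEAP1 holds back until electrophiles or oxidants modify it, and Slc7a11 is also a target of ATF4, the factor of the amino-acid response. Cystine uptake has been studied in myeloid cells of tumour-bearing mice, because T cells depend on cysteine released by other cells.

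The 3 known NRF2 targets did not move together between the groups: in tumour-bearing mice Gclm and Nqo1 were higher and Slc7a11 was lower. Values are normalised log2 expression, so a difference of 1 is a 2-fold change. The 250 bases before the annotated start of each gene are shown because these targets of 1 known regulator differed in direction. They are from RefSeq (GRCm38.p6), read 5′ to 3′ on the gene's strand, for Gclm chr3:122245307-122245556 (plus strand), Nqo1 chr8:107403206-107403455 (minus strand) and Slc7a11 chr3:50443614-50443863 (minus strand). Capitals mark matches, on either strand, to the letters TGANNNNGC (core of the antioxidant response element, bound by NRF2), TGATGNAA (amino-acid response element, bound by ATF4 with C/EBP factors), or TATAAA, a box of core promoters.
Gclm: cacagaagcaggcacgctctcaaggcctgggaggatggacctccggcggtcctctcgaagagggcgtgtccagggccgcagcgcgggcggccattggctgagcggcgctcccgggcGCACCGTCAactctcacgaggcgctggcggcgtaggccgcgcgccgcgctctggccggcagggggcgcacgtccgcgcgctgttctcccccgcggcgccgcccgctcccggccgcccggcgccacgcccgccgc
Nqo1: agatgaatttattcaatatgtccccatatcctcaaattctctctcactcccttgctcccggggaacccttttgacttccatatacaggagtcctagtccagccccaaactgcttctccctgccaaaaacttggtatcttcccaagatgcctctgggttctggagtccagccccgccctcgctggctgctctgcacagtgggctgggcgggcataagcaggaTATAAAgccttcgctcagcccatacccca
Slc7a11: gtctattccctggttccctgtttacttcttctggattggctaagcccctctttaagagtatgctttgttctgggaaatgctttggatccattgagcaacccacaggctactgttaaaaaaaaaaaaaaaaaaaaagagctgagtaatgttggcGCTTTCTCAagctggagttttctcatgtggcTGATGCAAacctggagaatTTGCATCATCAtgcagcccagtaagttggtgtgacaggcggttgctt

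The windows differed in composition and in these letters. Bases outside the windows were not searched, and a relation of the letters to the direction of a gene was not tested. The Gclm window held 78.4% G and C and 41 CpG dinucleotides, more CpG than 98.9% of the 32851 RefSeq windows of the same length. The Nqo1 window held 53.2% G and C and 5 CpG, and the Slc7a11 window 43.2% and 2 CpG, against medians of 52.4% and 6 CpG over all windows. Gclm had 1 match to TGANNNNGC, on the opposite strand at 134 to 126 bases before the start, and this match also fits the stricter letters TGACNNNGC. Of all windows 35.2% held TGANNNNGC and 10.2% held TGACNNNGC. Nqo1 had TATAAA at 29 to 24 bases and 0 matches to the other letters within this window. TATAAA occurred on either strand, at any position, in 12.4% of windows. Of all windows 7.03% held 2 or more matches to TGANNNNGC. Slc7a11 had 2 matches to TGANNNNGC, at 97 to 89 and 45 to 37 bases, neither of which has the stricter letters. It also had 2 matches to TGATGNAA in opposite orientations, at 66 to 59 and 47 to 40 bases, and the nearer of them overlaps the nearer TGANNNNGC match. TGATGNAA occurred in 3.45% of windows, and 13 of the 32851 (0.04%) held 2 or more matches.

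**Figure D1:**
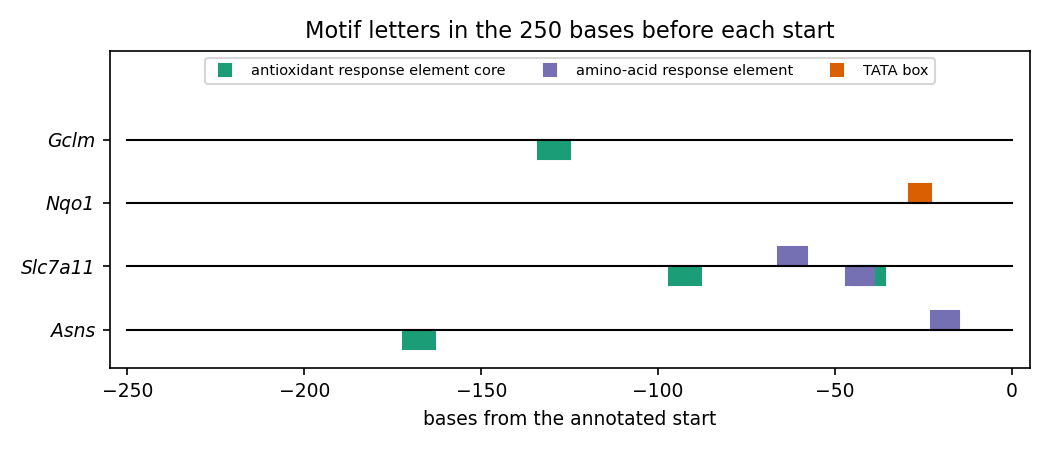
Matches to the letters of 3 motifs in the 250 bases before the annotated start of Gclm, Nqo1, Slc7a11 and Asns, by distance from the start in bases. Boxes above the line match on the gene's strand and boxes below it on the opposite strand. Slc7a11 has 2 amino-acid response element matches, and Asns, described with the amino-acid response genes, has 1.

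Gclm stood at 9.29, 9.01, 9.13, 9.16, 9.03 and 9.16 in tumour-bearing mice 1 to 6, and at 7.68, 7.48 and 7.55 in control pools 1 to 3. The groups did not overlap, and the lowest mouse (mouse 2) was 1.33 above the highest pool. The mean was 9.13 ± 0.10 in the tumour-bearing mice (SD, n = 6) and 7.57 ± 0.10 in the control pools (SD, n = 3). The difference was 1.56 ± 0.07 (SE of the limma fit), 2.95-fold higher.

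Nqo1 stood at 7.10, 6.37, 6.81, 6.39, 6.81 and 6.37 in tumour-bearing mice 1 to 6, and at 5.02, 5.09 and 5.41 in control pools 1 to 3. All mice were above all pools, by 0.96 at the nearest. The mice lay in sets of 3, with mice 2, 4 and 6 together at 6.37 to 6.39 and mice 3, 5 and 1 at 6.81 to 7.10. The space between the sets was 0.583 of the range. Mice 2 and 6 had the same value to 5 decimals, as happens in at least 1 pair of samples in 45.5% of all rows. The mean was 6.64 ± 0.31 in the tumour-bearing mice (SD, n = 6) and 5.17 ± 0.21 in the control pools (SD, n = 3), a difference of 1.47 ± 0.19 (SE), 2.77-fold higher. The mean of the pools was below the median of every array (5.92 to 5.99), and no background signal was used here. With a pseudocount of 16 on the linear scale the difference was 1.16, so its size is less certain than its direction.

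Slc7a11 stood at 6.86, 7.30, 7.10, 7.37, 7.32 and 7.19 in tumour-bearing mice 1 to 6, and at 8.95, 9.07 and 8.92 in control pools 1 to 3. The pools were all above the mice, and the highest mouse (mouse 4) was 1.55 below the lowest pool. The mean was 7.19 ± 0.19 in the tumour-bearing mice (SD, n = 6) and 8.98 ± 0.08 in the control pools (SD, n = 3). The difference was -1.79 ± 0.11 (SE), 3.46-fold lower.

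**Figure D2:**
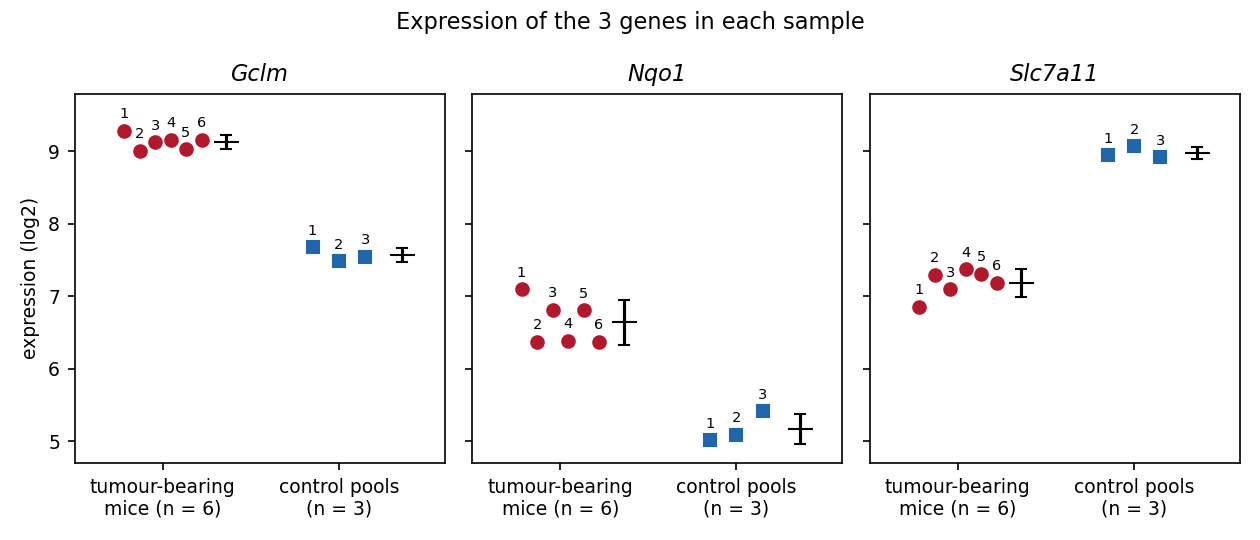
Log2 expression of Gclm, Nqo1 and Slc7a11 in each sample, with tumour-bearing mice as circles and control pools as squares, numbered by replicate. The bars beside the points are the mean and SD of each group. Gclm and Nqo1 lie higher, and Slc7a11 lower, in all 6 mice than in all 3 pools.

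The authors' table holds rows with at least a 2-fold change that also passed a limit on p. At the edge of the fold limit, its smallest absolute difference was 1.0003, and the nearest array row below an absolute difference of 1 had 0.9997. By size, Gclm took place 186 and Nqo1 place 221 of the 513 rows that were higher in the authors' table, and Slc7a11 took place 121 of the 451 that were lower. Over all array rows the places were 201, 239 and 132. Complete separation of the groups is shared by 24.8% of all rows, and by all 964 rows of the authors' table. With limma and Benjamini-Hochberg adjustment 23.2% of rows were called. Calls of a higher level in tumour-bearing mice made up 14.3% of rows and calls of a lower level 8.83%. All 964 rows of the authors' table were among the called rows, so a call adds nothing for a gene taken from it. The median difference over all 31648 rows was 0.016.

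**Figure D3:**
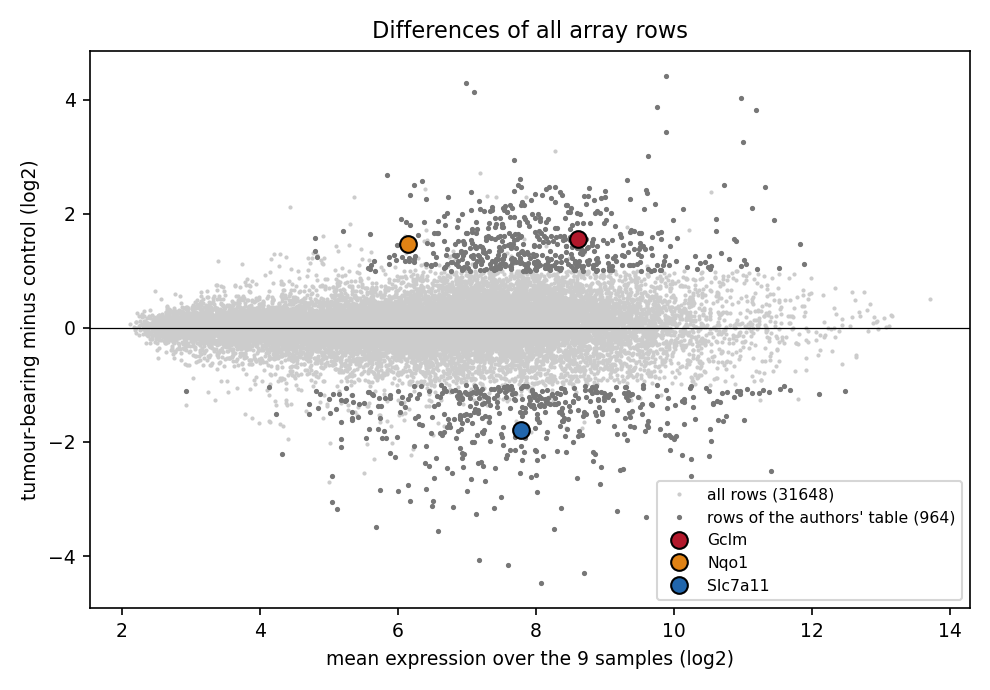
Difference between the groups (tumour-bearing minus control, log2) against mean log2 expression over the 9 samples for every array row. Rows of the authors' table are dark grey and the 3 genes are coloured. Gclm (1.56) and Nqo1 (1.47) lie above the zero line and Slc7a11 (-1.79) below it.

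Among the tumour-bearing mice the 3 genes varied to different degrees. The range over the mice was 0.28 for Gclm, 0.72 for Nqo1 and 0.52 for Slc7a11. The SD of Nqo1 among the mice was larger than that of 91.5% of the 3044 rows whose mean in the mice lay within 0.25 of its own. The same share was 78.2% of 2399 rows for Slc7a11 and 59.3% of 918 rows for Gclm. Among the pools the shares were 77.1% for Nqo1, 37.3% for Slc7a11 and 42.1% for Gclm. Mouse 1 was at the far end for each gene, with the highest Gclm (0.16 above the mean of the mice), the highest Nqo1 (0.46 above) and the lowest Slc7a11 (-0.33). This place was not particular to these genes. Among the lists of named genes described below, mouse 1 also had the highest primary granule mean (11.33) and cell division mean (9.29). It had the lowest mature neutrophil mean (8.66). Its monocyte and macrophage mean (8.47) and dendritic cell mean (6.72) lay inside the range of the other mice.

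Gclm and Slc7a11 ran in opposite directions over the 6 tumour-bearing mice, but not beyond what an exact permutation test allows (Pearson r = -0.758, two-sided p = 0.1056; Spearman rho = -0.486, p = 0.3556; n = 6). Without mice 1 and 2, the farthest from the median of Gclm, r was -0.22, and without mouse 1 alone it was -0.314, so the relation rests on mouse 1. With each array centred on its median r was -0.898 (exact permutation p = 0.0472). Nqo1 was left out of these relations because its mice fell into separate sets of 3, too few for a correlation within a set.

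**Figure D4:**
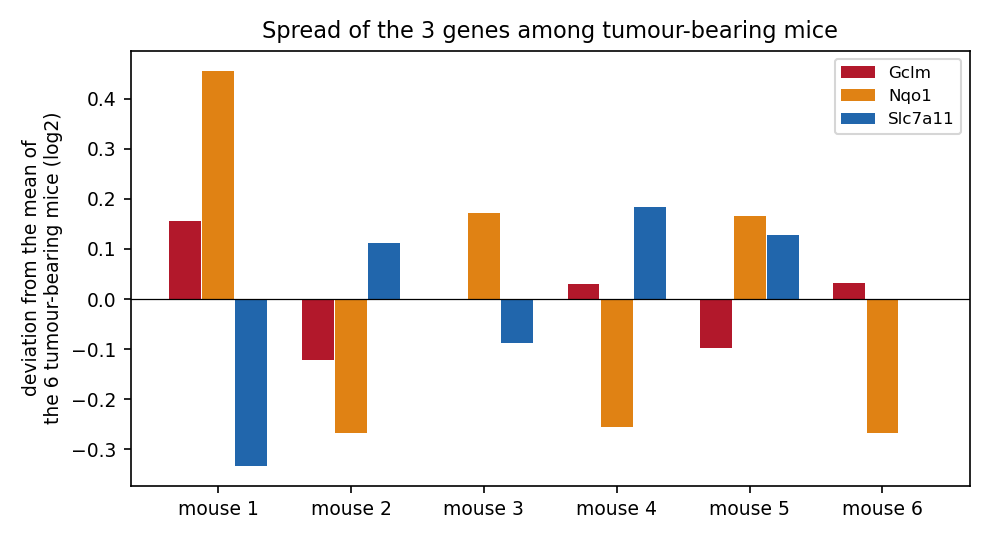
Deviation of each tumour-bearing mouse from the mean of the 6 mice (log2) for Gclm, Nqo1 and Slc7a11. Mouse 1 has the highest bars for Gclm (0.16) and Nqo1 (0.46) and the lowest for Slc7a11 (-0.33).

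Named marker genes of other cell types and of neutrophil maturation also differed between the groups. Only rows of the authors' table carry names, so each marker counted had been selected on this same contrast. These counts are therefore not independent evidence, and the genes of each list without a named row were not analysed. Of 12 primary granule genes of neutrophil precursors 7 had a named row and all 7 were higher. Their mean level ranged from 10.54 to 11.33 in the tumour-bearing mice and from 7.59 to 8.10 in the control pools. Of 35 cell division genes 32 were named and all 32 were higher, with list means of 8.81 to 9.29 in the mice and 6.80 to 7.17 in the pools. Among 26 genes of mature neutrophils 8 had a named row, each of them lower, with list means of 8.66 to 9.31 in the mice and 10.72 to 10.86 in the pools. These were Csf3r, Il1b, Clec4d, Ccl6, Rsad2, Cd101, Ccrl2 and Dusp1. Others on the list, such as Ly6g, Cxcr2, Mmp8, S100a8 and S100a9, had no named row, so the mean covers only part of the list. That the named genes of these lists separate the groups follows from that selection, as for Gclm, Nqo1 and Slc7a11. The part of the lists in the differences of the 3 genes was not tested. In bulk samples such as these, fewer cells of a type and less RNA per cell cannot be told apart.

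Named markers of cells that such a sort may also hold were mostly lower, and they too had been selected on this contrast. Named monocyte and macrophage markers (7 of 24) were all lower, with list means of 8.42 to 8.87 in the tumour-bearing mice and 10.20 to 10.29 in the control pools. Named dendritic cell and MHC class II markers (6 of 15) were all lower, at 6.62 to 7.32 in the mice and 9.61 to 9.94 in the pools. The single named gene of 14 B and plasma cell markers, Cd22, was lower (6.01 to 6.40 in the mice, 8.18 to 8.58 in the pools). The single named gene of 14 eosinophil, basophil and mast cell markers, Ms4a2, was higher (6.21 to 6.85 in the mice, 4.83 to 5.22 in the pools). Its row, too, is listed under an accession outside RefSeq, the mean of the pools was below every array median, and its difference was 1.46, or 1.12 with a pseudocount of 16. Of 19 erythroid and megakaryocyte markers Tfrc was higher and Thbs1 lower, and of 16 T and natural killer cell markers 0 were named. The part of these cells in the values of Gclm, Nqo1 and Slc7a11 was not tested.

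Over the 6 tumour-bearing mice the mean of the 8 named mature neutrophil genes ran against Gclm (r = -0.883, exact permutation p = 0.0306, and rho = -0.771, exact permutation p = 0.1028). The same mean ran with Slc7a11 (r = 0.845, exact permutation p = 0.0417, and rho = 0.829, exact permutation p = 0.0583). Without mice 1 and 5, the farthest from the median of the list, r was -0.671 for Gclm and 0.708 for Slc7a11. After adjustment over the 7 relations computed, both had p = 0.146 by the exact permutation test of r, and none of the 7 passed. The primary granule mean gave r = -0.019 with Gclm and -0.231 with Slc7a11, and the cell division mean gave 0.283 and -0.602.

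Of 21 genes for glutathione synthesis and cystine supply 6 were named, 4 higher and 2 lower, Gclm and Slc7a11 among them, with a median difference of 1.36. The authors had selected each of them on these samples, so these counts are not independent evidence of direction. Ggt1, the membrane enzyme that begins the breakdown of glutathione outside the cell, was 9.02 to 9.48 in the tumour-bearing mice (median 9.17) and 7.08 to 7.23 in the control pools, a difference of 2.04 ± 0.10 (SE). Slc7a5, the light chain of the transporter LAT1 for large neutral amino acids, was 8.86 to 9.54 (median 9.12) in the mice and 7.61 to 7.70 in the pools (1.50 ± 0.15). It is of the same transporter family as Slc7a11, which went the opposite way. Chac2, which degrades glutathione inside the cell, was 8.41 to 8.90 (median 8.52) in the mice and 7.20 to 7.48 in the pools (1.23 ± 0.12). Ggct, gamma-glutamylcyclotransferase, was 4.48 to 5.37 (median 4.72) in the mice and 6.28 to 6.54 in the pools (-1.58 ± 0.19). Its row is listed under an accession outside RefSeq, which leaves the gene uncertain, and its mean in the mice was below every array median. With a pseudocount of 16 its difference was -1.18. Apart from Gclm and Slc7a11, Ggt1, Slc7a5 and Chac2 were thus higher and Ggct was lower. Ggt1 and Chac2 act in the breakdown of glutathione, so these directions do not describe its synthesis. Gclc, Gss and Slc3a2, the partner chain of xCT and LAT1, had no named row and were not analysed here.

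Of 42 genes of the NRF2 pathway the named ones were Gclm, Nqo1 and Slc7a11 alone. Of 34 genes that use or recycle glutathione (peroxidases, transferases, reductase) 0 were named, and of 26 genes that supply NADPH and one-carbon units 0 were named. Of 26 thioredoxin, peroxiredoxin and dismutase genes Txnip was named, the inhibitor that binds thioredoxin. It was 9.87 to 10.30 (median 10.12) in the tumour-bearing mice and 11.64 to 11.79 in the control pools (-1.61 ± 0.10 SE). A further row given to Txnip, under an accession outside RefSeq, had a larger difference in the same direction, at -2.38 ± 0.40.

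Of 14 genes of the NADPH oxidase and oxidant production, Mpo, Nos2 and Hvcn1 alone were named, and all 3 were higher. Each had been selected on this contrast, and 53.2% of the rows of the authors' table were higher. The other genes of the list were not analysed. Mpo, which makes hypochlorous acid and is also a primary granule gene, was 11.71 to 12.68 (median 12.34) in the tumour-bearing mice and 7.70 to 8.69 in the control pools (4.03 ± 0.26 SE). Nos2, the inducible nitric oxide synthase, was 7.02 to 7.92 (median 7.35) in the mice, with mouse 1 the highest, and 5.84 to 5.87 in the pools (1.52 ± 0.16). Hvcn1, the proton channel that sustains the oxidase of phagocytes, was 8.98 to 9.13 (median 9.02) in the mice and 7.78 to 8.11 in the pools (1.08 ± 0.07).

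Slc7a11 was lower along with Ddit3 and Ppp1r15a and against Asns and Slc7a5, the other named genes of the amino-acid response. Of 32 genes on this list 5 were named, 2 higher and 3 lower, with a median difference of -1.48, Slc7a11 included. All 5 had been selected on this contrast, and the genes of the list without a named row were not analysed. Ddit3, the stress factor CHOP, was 7.11 to 7.53 (median 7.33) in the tumour-bearing mice and 8.73 to 8.97 in the control pools (-1.48 ± 0.10 SE). Ppp1r15a, the phosphatase subunit GADD34 that reverses the translational arrest of this response, was 6.33 to 6.69 (median 6.52) in the mice and 7.97 to 8.41 in the pools (-1.67 ± 0.10). Asns, asparagine synthetase, was 9.05 to 9.29 (median 9.15) in the mice and 7.69 to 7.86 in the pools (1.36 ± 0.07). The windows of Asns and Slc7a11, which went opposite ways, both hold TGATGNAA and TGANNNNGC. The TGANNNNGC match of Asns, at 172 to 164 bases on the opposite strand, has the stricter letters TGACNNNGC, which the Slc7a11 window lacks. The window of Ggct, whose row was lower and whose gene is uncertain, also holds TGACNNNGC. Ggt1, which was higher, has several windows, and some of them hold TGACNNNGC. The window of Slc11a1, which was lower, holds TGANNNNGC without the stricter letters. Neither TGANNNNGC nor TGATGNAA was in the windows of Ddit3, Ppp1r15a and Txnip, which were lower. The same held for Chac2, Mpo, Tfrc and Alas1, which were higher. The window of Nqo1, which was higher, holds no TGANNNNGC. A relation of these letters to direction was not tested. The TGATGNAA match of Asns lay at 23 to 16 bases on the gene's strand and is shown in capitals, with its neighbouring bases, from chr6:7693215-7693242 (minus strand, GRCm38.p6).
Asns: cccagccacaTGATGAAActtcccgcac

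Of 29 iron and heme genes 3 were named. Tfrc, the transferrin receptor, was 7.05 to 7.96 (median 7.14) in the tumour-bearing mice and 5.99 to 6.33 in the control pools (1.21 ± 0.23 SE). Alas1, the enzyme of the first step of heme synthesis, was 9.17 to 9.49 (median 9.25) in the mice and 8.05 to 8.07 in the pools (1.23 ± 0.08). Slc11a1, the metal transporter of phagosomes, was 9.96 to 10.35 (median 10.10) in the mice and 11.30 to 11.67 in the pools (-1.33 ± 0.11). Counting each gene once, 17 of the 193 genes on the pathway lists were named, 11 higher and 6 lower. Of all 895 named genes 485 were higher and 410 lower, and of all 31648 rows 18088 were higher and 13560 lower. The median difference of the 17 genes was 1.23 and that of the 895 named genes 1.04. Every named gene had been selected at an absolute difference above 1, so these medians follow from which direction holds the larger number of genes, and nothing is read from them.

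**Figure D5:**
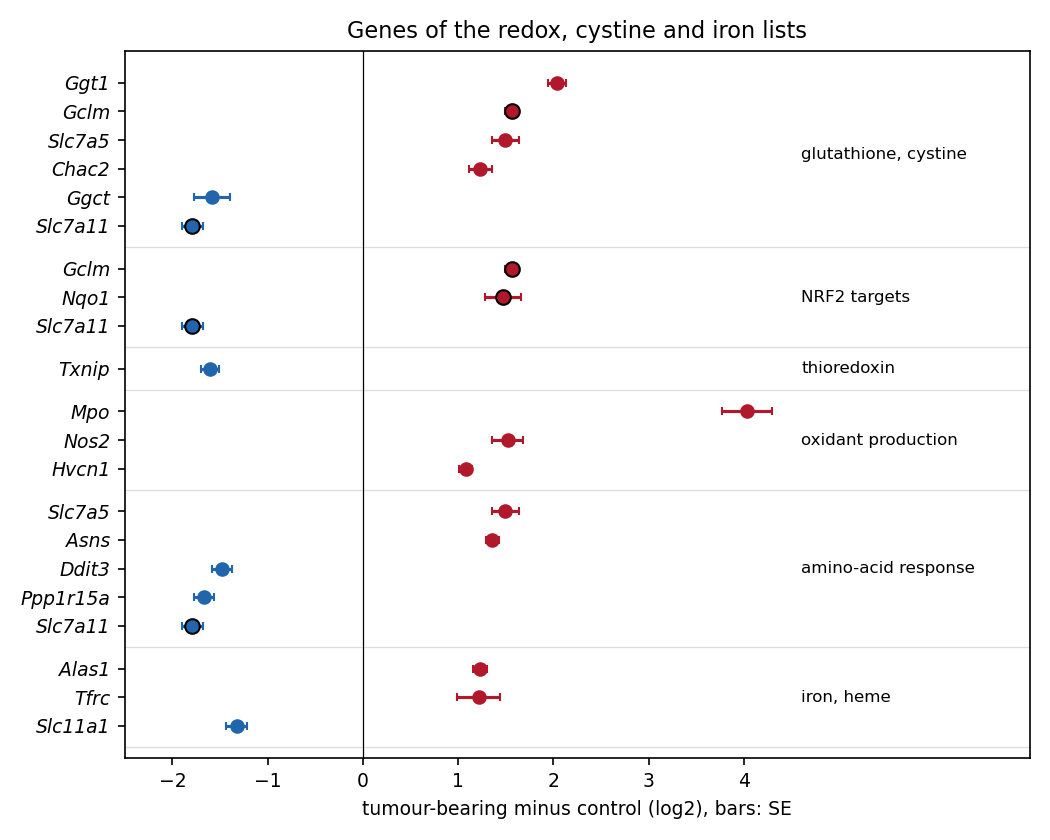
Differences (tumour-bearing minus control, log2) with the SE of the limma fit for the named genes of the redox, cystine, amino-acid response and iron lists. Gclm, Nqo1 and Slc7a11 are outlined in black, and genes on several lists appear in each. Mpo has the largest difference (4.03), and Slc7a11 (-1.79) the lowest.

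The named genes whose pattern over the 9 samples was most like that of Gclm were Adora3, an adenosine receptor (Pearson r = 0.997), Ncbp1, a subunit of the cap-binding complex (0.996), and Cd38, an NAD-hydrolysing ectoenzyme (0.995). For Nqo1 they were Inpp5j, an inositol polyphosphate phosphatase (0.990), Hmgn5, a nucleosome-binding protein (0.987), and Mcm7, a subunit of the replicative helicase (0.985). For Slc7a11 they were Zfp36l2, an RNA-binding protein of mRNA decay (0.996), Marcks, a protein kinase C substrate (0.996), and Cytip, a cytohesin-binding protein (0.995). Of the 894 other named genes 475 had r above 0.9 with Gclm, 448 with Nqo1 and 393 with Slc7a11. These values follow the shared contrast between the groups, on which all of the genes had been selected, and also the spread within groups. Among the tumour-bearing mice Mcm7 was split as Nqo1 was, with mice 2, 4 and 6 at 6.39 to 6.40 and mice 3, 5 and 1 at 6.77 to 7.29. Mcm7 was picked from the 894 genes for its likeness to Nqo1 over samples that include these mice. The shared split was thus partly selected for and is not independent evidence. The mean of Mcm7 in the pools was 4.77, below every array median. Its difference was 1.90, or 1.44 with a pseudocount of 16. The cause of the split was not tested.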

How the data were processed

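RNA of sorted cells was amplified, labelled with biotin and hybridised to Affymetrix arrays, per the labels' protocols. The deposited values are log2 expression as the authors processed them, with array medians of 5.92 to 5.99; RMA, PLIER, Affymetrix Power Tools and the build mm9 appear per the submitters' processing notes, and what each was used for is not given in the sources used here. Values spanned 1.95 to 13.95 (log2). Precision is limited by the number of arrays. The labels do not record batches, and nothing beyond the titles states that the samples were prepared separately, so the spread may be partly technical. Correlations between arrays were 0.985 to 0.991 within the tumour-bearing mice, 0.986 to 0.990 within the control pools and 0.954 to 0.974 between them.

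The value table has no gene names. Rows were tied to the 964 named ones by all 9 sample values to 5 decimals, and each found exactly 1 partner. Names were updated through RefSeq (GRCm38.p6): 717 rows by accession, 114 by symbol, 52 by synonym, and 81 kept the file's name. A gene with several rows is given by the row of highest mean. All 31648 rows were fitted with limma 3.58.1 in R 4.3.3 (two-sided, Benjamini-Hochberg, threshold 0.05), and the fit was tested on simulated data. Correlations over mice had exact permutation tests (scipy 1.17.1). The members and the 17 gene lists (8 of pathways, 9 of markers) were chosen with earlier results of these data known. The text names the members, up to 6 genes of a pathway list by absolute difference, up to 3 of a marker list, and 3 genes most like each member. The marker genes the rule gave are described by list means, and the 8 mature neutrophil genes are also listed by name, outside that rule. The relations with list means, and leaving Nqo1 out of the correlations, were chosen after seeing the data. Alternatives were other scalings, tests and filters, a replicate block and leaving out each sample. Promoter windows are RefSeq's, and protein sequences were not used here.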

Additional observations from a re-analysis of the deposited data

How the results depend on the processing

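Gclm, Nqo1 and Slc7a11 kept their direction under all 13 alternatives computed for each: median centring, quantile normalization, the pseudocount, the replicate block and leaving out each sample. Their differences ranged from 1.48 to 1.62, 1.16 to 1.59 and -1.90 to -1.69. The lowest for Nqo1, 1.16 with a pseudocount of 16, moved by more than the spread between replicates. Of 559 such values for the 43 named genes 552 moved by less than that spread, 7 by more, all with the pseudocount, and 0 reversed. All 43 genes had been selected on this contrast, and the groups did not overlap for any of them. Leaving out a sample or adding the pseudocount could therefore not reverse a direction. The kept directions of Gclm, Nqo1, Slc7a11 and the other named genes thus add no support. The correlation of Gclm with Slc7a11 was -0.898 with median centring (exact permutation p = 0.0472). It was -0.758 as deposited (exact permutation p = 0.1056) and -0.436 after quantile normalization (exact permutation p = 0.3889). Several settings were tried, so the lowest p is not read as a pass, and the cause of the change was not tested. Leaving out each mouse gave -0.949 to -0.314.

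Of all rows 7333 were called. A Welch test called 3800 and the replicate block, with 3 mice and 3 pools, 4289. Deviations from the group means correlated at 0.094, 0.007 and 0.023 between samples of 1 number, too low to treat these as pairs. The methods' t-test called 6606 rows after Benjamini-Hochberg, and 969 at the authors' limits (p of 0.001 and 2-fold); limma at those limits, added after seeing the data, passed 1033. Quantile normalization gave 4014 higher and 3570 lower (52.9% higher, against 61.9% as deposited). Without background signals, low values cannot be called undetected. Among 43 named genes no mouse stood apart from the other 5 by the gap test used, where chance gives about 2.15.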
